A study of Homo sapiens with 12 samples.

Results

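The 44 genes described here encode subunits of the vacuolar proton pump, membrane proteins and enzymes of the lysosome, the transcription factors that drive them, and autophagy proteins. They were chosen by name from the 60664 rows of a gene count table, and each name matched 1 row. They comprise 16 genes of the pump (6 of the membrane sector V0, 8 of the cytosolic sector V1 and 2 accessory subunits), 6 lysosomal membrane proteins, 10 genes of lysosomal enzymes and their activator, 3 transcription factors and 9 autophagy genes. A filter on low counts left 43 of them among 17544 tested genes, and ATP6V0C did not pass it.

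The messenger RNA came from the line MDA-MB-231, derived from a triple-negative breast cancer and labelled WT in every library. All flasks were grown at pH 7.4 in high-glucose DMEM with serum, and each then received medium at one acidity for 24 h. There were 4 libraries from medium of pH 7.4, 4 from pH 6.9 and 4 from pH 6.4, numbered as repeats 1 to 4 in each. The middle value is pH 6.9 in the labels of the samples and pH 6.7 in the protocol, and it is called pH 6.9 here. Nothing states that the repeats were separate cultures, so p-values measure only the spread between these samples, which may be technical, and a single line stands for all cells.

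The lumen of the lysosome is kept acid by the V-ATPase, in which the V1 sector splits ATP and turns a rotor that drives protons through the V0 sector. The enzymes inside need this acidity to break down proteins, lipids and sugar chains, including the cargo that autophagosomes bring when they fuse with the lysosome. Transcription factors of the MiT/TFE family (TFEB, TFE3, MITF) bind a palindromic DNA element called CLEAR, with CACGTG at its centre, in the promoters of many of these genes. Cells that export acid, tumour cells among them, can also carry the pump on the plasma membrane.

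Total counts ran from 21060767 to 50643233 per library. Repeat 1 at pH 7.4 and repeat 2 at pH 6.9 held the fewest detected genes, 17841 and 21628, against 23113 to 27384 in the other 10 libraries. All 8 markers of the line's basal, mesenchymal state passed the filter, and their summed level was 6410 to 6720 CPM at pH 7.4, 6580 to 7170 CPM at pH 6.9 and 7500 to 8470 CPM at pH 6.4. SPARC, one of the 8, had only 1.29 to 4.24 CPM over all libraries. For these markers CPM is the count relative to the total count of the library. In all later paragraphs CPM is the count of a gene relative to the TMM-normalised size of its library. Of 6 luminal markers 3 passed, with a sum of 565 to 693 CPM at pH 7.4, 485 to 581 CPM at pH 6.9 and 360 to 473 CPM at pH 6.4, nearly all of it KRT18, while PGR and FOXA1 stayed at or below 0.0643 CPM. GATA3 had 8 to 21.7 CPM and ERBB3 6.4 to 15.7 CPM. Of 6 fibroblast markers 4 passed, with a sum of 70.6 to 105 CPM at pH 7.4, 54.1 to 78.0 CPM at pH 6.9 and 33.3 to 48.2 CPM at pH 6.4, and DCN was at or below 0.0321 CPM. COL1A1 had 10 to 16.3 CPM, COL1A2 10.9 to 55.1, LUM 1.53 to 12.2 and PDGFRB 6.56 to 23.3. Of 6 leukocyte markers 5 passed, with a sum of 9.96 to 15.6 CPM at pH 7.4, 9.84 to 15.1 CPM at pH 6.9 and 3.63 to 9.79 CPM at pH 6.4, and PTPRC was at or below 0.523 CPM. CSF1R had 1.48 to 10.8 CPM and CD14 1.29 to 6.21 CPM. Of 5 endothelial markers 3 passed, with a sum of 9.73 to 17.7 CPM at pH 7.4, 11.4 to 14.2 CPM at pH 6.9 and 13.8 to 17 CPM at pH 6.4, and CDH5 was at or below 0.0719 CPM. PECAM1 had 4.96 to 12.7 CPM and KDR 3.18 to 9.99 CPM. All but the endothelial sum moved with the medium, and their part in the results below was not tested. In bulk libraries, fewer cells of a type and less RNA per cell cannot be told apart.

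Promoter windows from RefSeq (GRCh38.p14) are shown first, because the results return to the motif they hold. Each window ran from 250 bases before to 50 bases after a gene's start, and 34 of the 44 genes had one. Of these, 9 held TCACGTG on either strand, and one window of 30 bases around a match is printed for each, 5′ to 3′ on the gene's strand. Capitals mark TCACGTG, its reverse complement CACGTGA, or both where they overlap as TCACGTGA.
MCOLN1 (chr19:7522598-7522627): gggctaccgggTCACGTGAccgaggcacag
CLCN7 (chr16:1475038-1475067): cccgtcgcgcgTCACGTGgccgccggcgcg
LAMP1 (chr13:113297199-113297228): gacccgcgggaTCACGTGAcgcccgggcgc
ATP6V0D1 (chr16:67481199-67481228): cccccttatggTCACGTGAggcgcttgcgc
ATP6V0B (chr1:43974909-43974938): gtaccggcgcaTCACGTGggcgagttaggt
ATP6V1G1 (chr9:114587699-114587728): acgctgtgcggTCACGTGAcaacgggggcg
CTSD (chr11:1763957-1763986): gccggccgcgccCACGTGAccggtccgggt
NEU1 (chr6:31862930-31862959): atgctgcgtgaTCACGTGggaggagatgag
CTSA (chr20:45891281-45891310): gaggaagactgTCACGTGgcgccggagttc

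CLCN7, ATP6V0D1, CTSD and NEU1 lie on the minus strand and the other 5 genes on the plus strand. LAMP1 held 6 matches, and the CACGTG core of every match in the 9 genes began upstream, 1 to 192 bases before the start. The core nearest to a start, in LAMP1, began 1 base before it and ran across it. The full CLEAR palindrome of 10 letters, which adds G before and C after TCACGTGA, stood in the windows of MCOLN1 and ATP6V1G1 only. Counted by gene, as the 9 were, 4.49% of all 27305 genes with a window held TCACGTG, 1.18% held TCACGTGA and 0.421% held the palindrome. The shorter CACGTG stood in 8.77% of these genes.

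At pH 6.4 several genes of the proton pump, the lysosomal membrane and the enzymes lost transcripts. In the same medium 3 autophagy genes, TFE3, 1 pump gene and 2 membrane genes gained. Against pH 7.4, 7 of the 43 tested genes were higher and 13 lower by edgeR's quasi-likelihood test at an adjusted p under 0.05. That is 46.5% called, beside 30.3% of all 17544 tested genes, and 16.3% higher and 30.2% lower, beside 15.6% and 14.7%, so the share of rises was near the background and the share of falls above it. The libraries of pH 6.4 and pH 7.4 did not overlap for 6 of the 43 genes upward and 12 downward (14% and 27.9%), beside 14.4% and 13.5% of all tested genes, 27.9% in all. With the repeat number as a block, 10 of the 43 genes were higher and 18 lower (23.3% and 41.9%, beside 21.4% and 20.2% of all tested genes in the same fit). The median log2 fold change of the 43 genes was -0.03, beside 0.00 over all tested genes, because falls and rises stood side by side. By role, 6 of 15 pump genes, 3 of 6 membrane genes and 4 of 10 enzyme genes fell, 1, 2 and 0 of them rose, and 3 of 9 autophagy genes and 1 of 3 factors rose with no fall in either.

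**Figure D1:**
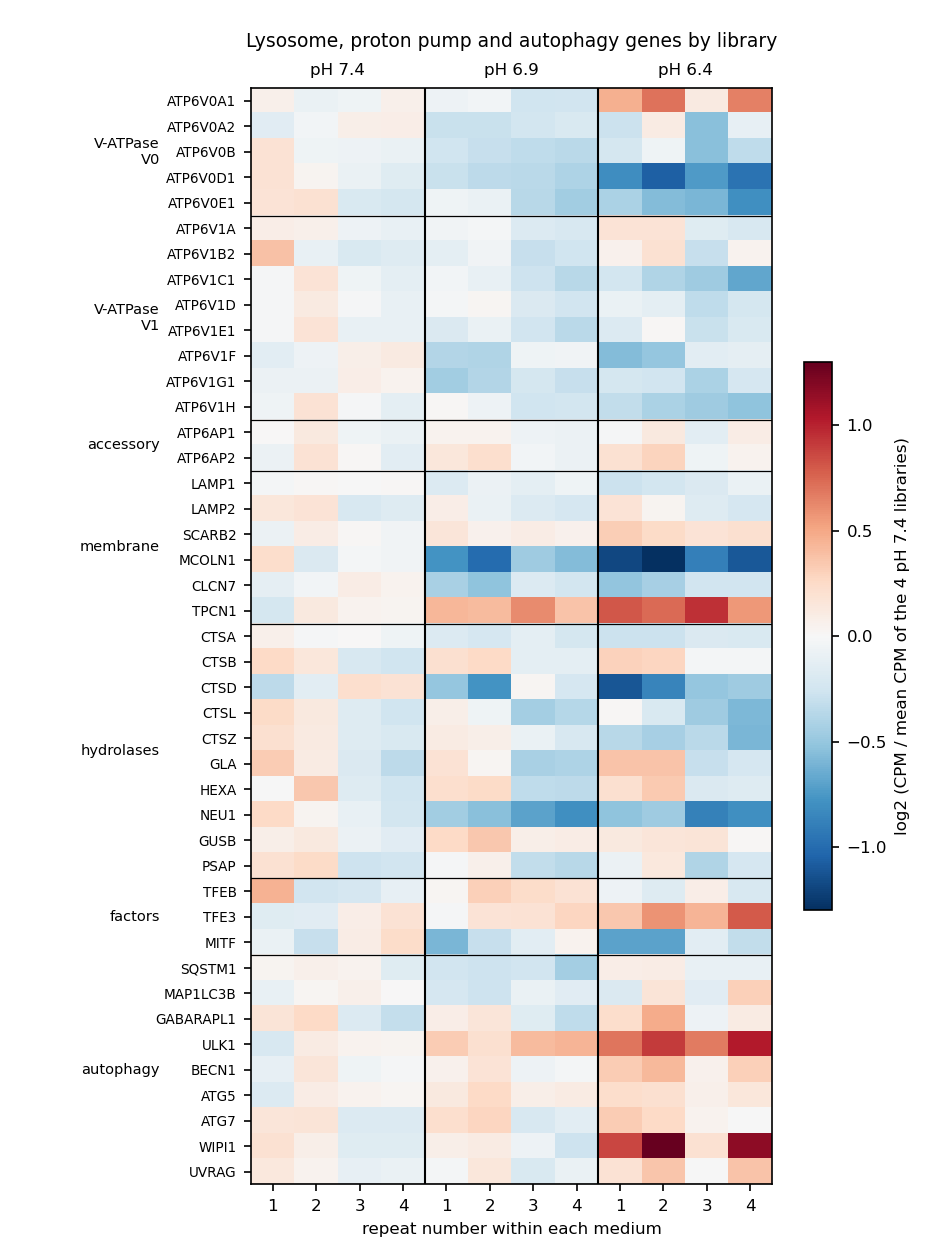
Heat map of 43 genes (rows, grouped by role) in the 12 libraries (columns, repeats 1 to 4 at pH 7.4, pH 6.9 and pH 6.4). Colour gives log2 of CPM over the mean of the 4 pH 7.4 libraries; MCOLN1, ATP6V0D1 and NEU1 are blue and TPCN1, ULK1 and WIPI1 red in every pH 6.4 library.

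Among the 15 tested pump genes of the 44, the membrane sector V0 held the largest fall and the single rise. ATP6V0D1 (ENSG00000159720, chr16:67438014-67481237), subunit d1 that joins the proton ring to the central stalk, had 82.6, 74.1, 68.4 and 64.8 CPM at pH 7.4, 59.3, 57.1, 57.0 and 55.0 CPM at pH 6.9 and 41.5, 34.8, 43.4 and 37.2 CPM at pH 6.4. The 3 media formed separate ranges in falling order of pH. The mean was 39.2 ± 3.92 CPM at pH 6.4 and 72.5 ± 7.74 CPM at pH 7.4 (SD, n = 4 each), a 1.85-fold fall (log2 -0.89, SE 0.09, edgeR adjusted p = 3.45e-05). It also fell between the acid media, by 0.54 on the log2 scale at pH 6.4 against pH 6.9 (edgeR adjusted p = 0.00418).

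ATP6V0E1 (ENSG00000113732, chr5:172983757-173035445), the small subunit e1, had 205, 208, 159 and 156 CPM at pH 7.4, 175, 171, 142 and 133 CPM at pH 6.9 and 137, 123, 121 and 105 CPM at pH 6.4. Every pH 6.4 library was below every pH 7.4 library, while the pH 6.9 libraries overlapped both. The fall was 1.5-fold at pH 6.4 against pH 7.4 (log2 -0.59, SE 0.12, edgeR adjusted p = 0.00285).

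ATP6V0A1 (ENSG00000033627, chr17:42458844-42522611), subunit a1, which forms part of the proton path and helps place the pump in the cell, went the other way. It had 45.8, 41.2, 41.8 and 45.8 CPM at pH 7.4, 41.7, 42.7, 36.4 and 36.7 CPM at pH 6.9 and 60.1, 71.0, 47.3 and 68.8 CPM at pH 6.4. Only the pH 6.4 libraries stood above the others, with repeat 3 close to them. The rise was 1.42-fold against pH 7.4 (log2 0.50, SE 0.12, edgeR adjusted p = 0.00518) and 1.57-fold against pH 6.9 (log2 0.65, SE 0.12, edgeR adjusted p = 0.00459).

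ATP6V0B (ENSG00000117410, chr1:43974487-43978295), a proton-carrying ring subunit, had 117, 98.8, 97.8 and 96.9 CPM at pH 7.4, 85.8, 83.1, 81.4 and 80.5 CPM at pH 6.9 and 87.2, 98.5, 70.5 and 81.5 CPM at pH 6.4. Repeat 2 at pH 6.4 reached the pH 7.4 range. The fall of 0.28 on the log2 scale (SE 0.10, edgeR adjusted p = 0.0418) missed the threshold under 17 of 23 alternative settings, with adjusted p-values of 0.00614 to 0.229. ATP6V0A2, the a2 subunit, had 33.4 to 52.4 CPM at pH 6.4 and 44 to 51.7 CPM at pH 7.4 and was not called (log2 -0.19, edgeR adjusted p = 0.248). ATP6V0C, the main proton-carrying ring subunit, had 0 to 15 raw counts in any library: 14, 15, 9 and 5 at pH 6.4 against 0, 0, 3 and 6 at pH 7.4. A read-through gene, AC093525.2, shares 57.5% of its exon length on the same strand in GENCODE release 29, and the part of this overlap in the low count was not tested.

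In the V1 sector 3 of 8 genes fell and none rose, with a median log2 fold change of -0.23. ATP6V1C1 (ENSG00000155097), subunit C, which holds the sectors together, had 167, 191, 162 and 154 CPM at pH 7.4, 164, 157, 140 and 131 CPM at pH 6.9 and 142, 129, 122 and 105 CPM at pH 6.4. ATP6V1H (ENSG00000047249), subunit H, which regulates coupling and silences the free V1 sector, had 52.1, 61.7, 53.6 and 49.5 CPM at pH 7.4, 55.0, 52.0, 45.4 and 45.9 CPM at pH 6.9 and 43.4, 40.9, 39.3 and 37.8 CPM at pH 6.4. Both were lower in every pH 6.4 library than in any pH 7.4 library. ATP6V1C1 fell 1.35-fold at pH 6.4 against pH 7.4 (log2 -0.43, SE 0.10, edgeR adjusted p = 0.00636), and ATP6V1H fell 1.34-fold (log2 -0.43, SE 0.09, edgeR adjusted p = 0.00387).

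ATP6V1G1 (ENSG00000136888, chr9:114587746-114598373), subunit G1 of the outer stalk, had 108, 109, 122 and 118 CPM at pH 7.4, 83.3, 88.0, 97.4 and 93.1 CPM at pH 6.9 and 97.6, 96.4, 86.0 and 98.3 CPM at pH 6.4. Both acid media lay below pH 7.4 and overlapped each other. The fall at pH 6.4 against pH 7.4 was 1.21-fold (log2 -0.27, SE 0.08, edgeR adjusted p = 0.0156), and without repeat 3 at pH 7.4 it missed the threshold. The other 5 V1 genes were not called: the ATP-splitting subunits ATP6V1A and ATP6V1B2 both had log2 0.01, the rotor subunits ATP6V1D and ATP6V1F had -0.19 and -0.32, and the outer stalk subunit ATP6V1E1 had -0.16. With the repeat number as a block, ATP6V1D (adjusted p = 0.0147), ATP6V1E1 (0.0252) and ATP6V1F (0.00088) passed as lower by edgeR. The accessory subunits ATP6AP1 and ATP6AP2, which help assemble the pump, had 95.8 to 115 and 138 to 175 CPM at pH 6.4 against 99.7 to 115 and 130 to 162 CPM at pH 7.4 and were not called.

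**Figure D2:**
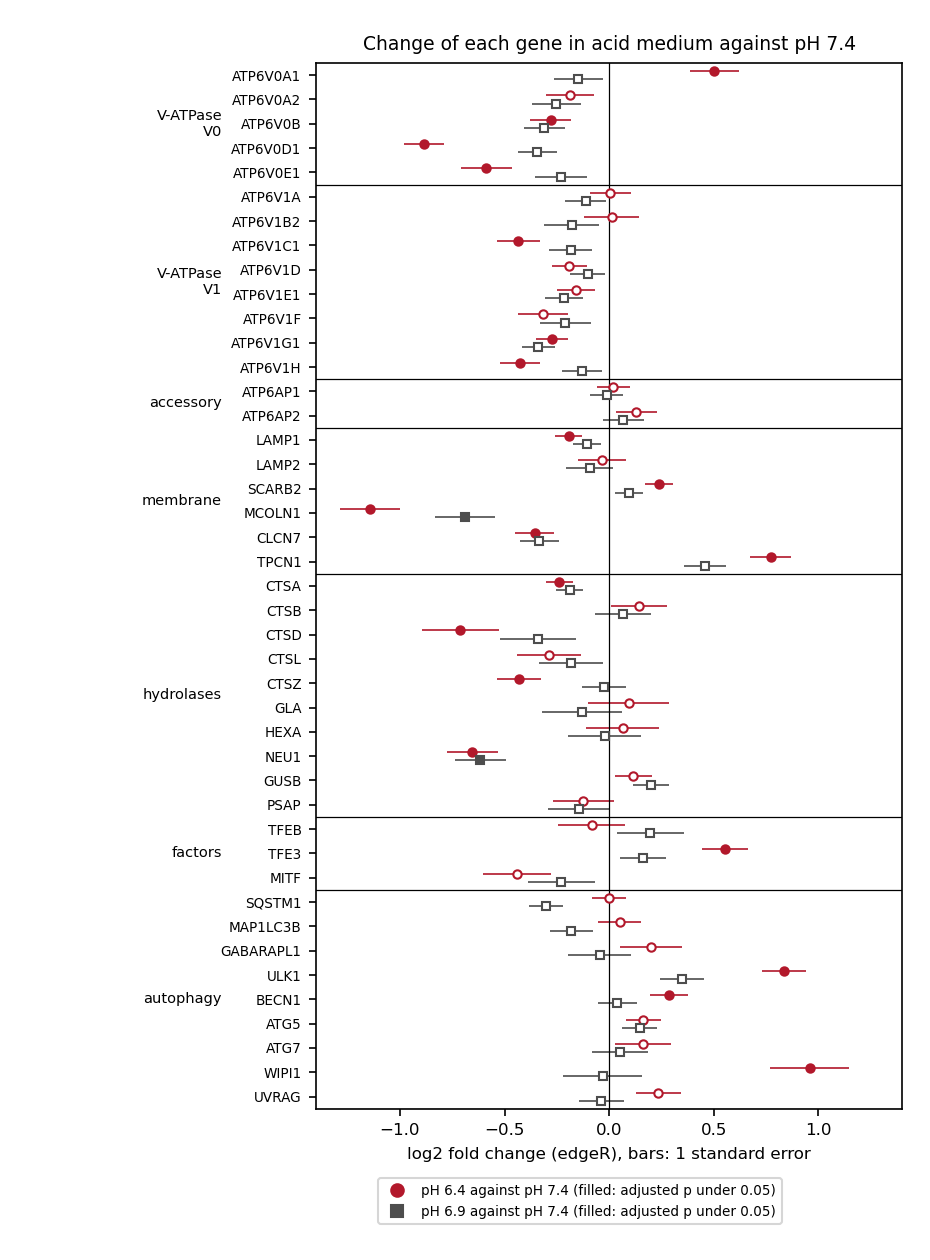
Log2 fold change of 43 genes (rows, grouped by role), with bars of 1 standard error; red circles give pH 6.4 against pH 7.4, grey squares pH 6.9 against pH 7.4, and filled symbols an edgeR adjusted p under 0.05. Filled circles lie left of 0 for 13 genes and right of 0 for 7, and the filled squares are MCOLN1 and NEU1.

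Among the lysosomal membrane proteins, channels moved in opposite directions. MCOLN1 (ENSG00000090674, chr19:7522626-7534009) encodes TRPML1, a channel that releases calcium and other cations from the lysosome. It had 42.6, 31.9, 35.7 and 35.3 CPM at pH 7.4, 21.2, 18.2, 26.4 and 24.6 CPM at pH 6.9 and 16.0, 13.3, 19.6 and 16.9 CPM at pH 6.4. Every acid library was below every pH 7.4 library, while pH 6.4 repeat 3 overlapped the pH 6.9 range. At pH 6.4 it averaged 16.5 ± 2.60 CPM and at pH 7.4 36.4 ± 4.47 CPM (SD, n = 4 each), a 2.21-fold fall (log2 -1.14, SE 0.14, edgeR adjusted p = 8.97e-05) and the largest among the 43 genes.

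TPCN1 (ENSG00000186815, chr12:113221050-113298585) encodes TPC1, another cation channel of endosomes and lysosomes. It had 42.5, 54.1, 51.2 and 50.8 CPM at pH 7.4, 66.9, 66.2, 75.8 and 64.1 CPM at pH 6.9 and 86.9, 82.7, 96.0 and 73.5 CPM at pH 6.4. Every acid library was above every pH 7.4 library. The rise at pH 6.4 against pH 7.4 was 1.71-fold (log2 0.77, SE 0.10, edgeR adjusted p = 0.000108).

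CLCN7 (ENSG00000103249, chr16:1444934-1475580), the chloride and proton exchanger ClC-7, had 85.8, 91.0, 99.5 and 96.0 CPM at pH 7.4, 69.7, 65.0, 82.3 and 78.8 CPM at pH 6.9 and 65.2, 69.3, 78.5 and 78.1 CPM at pH 6.4. Both acid media lay below pH 7.4, and the fall at pH 6.4 was 1.28-fold (log2 -0.36, SE 0.09, edgeR adjusted p = 0.0109). SCARB2 (ENSG00000138760, chr4:76158733-76234536), which escorts glucocerebrosidase to the lysosome, had 160, 181, 171 and 164 CPM at pH 7.4, 188, 176, 181 and 176 CPM at pH 6.9 and 210, 200, 191 and 195 CPM at pH 6.4. Its pH 6.4 libraries stood above all others, a rise of 1.18-fold against pH 7.4 (log2 0.24, SE 0.07, edgeR adjusted p = 0.0149). The structural glycoprotein LAMP1 had 191 to 218 CPM at pH 6.4 and 227 to 234 CPM at pH 7.4 (log2 -0.19, SE 0.07, edgeR adjusted p = 0.038), a call lost under 15 of 23 alternative settings (adjusted p 0.00486 to 0.36). LAMP2 had 261 to 344 CPM at pH 6.4 and 263 to 345 CPM at pH 7.4 and was not called (log2 -0.03, edgeR adjusted p = 0.859).

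Of the lysosomal enzymes, 4 of 10 fell at pH 6.4 against pH 7.4 and none rose. CTSD (ENSG00000117984, chr11:1752752-1764573), the aspartic protease cathepsin D, had 685, 789, 1011 and 985 CPM at pH 7.4, 611, 505, 883 and 747 CPM at pH 6.9 and 401, 478, 614 and 628 CPM at pH 6.4. The pH 6.4 libraries were below all pH 7.4 libraries, and in each medium repeats 1 and 2 were below repeats 3 and 4. The fall was 1.64-fold (log2 -0.71, SE 0.18, edgeR adjusted p = 0.0091). A neighbouring gene annotated on the same strand, AC068580.4, shares 41.7% of CTSD's exon length, so reads of the pair may be mixed.

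NEU1 (ENSG00000204386, chr6:31857659-31862906), the sialidase that removes terminal sialic acids, had 148, 127, 116 and 105 CPM at pH 7.4, 90.6, 85.0, 76.9 and 71.5 CPM at pH 6.9 and 86.2, 90.4, 67.4 and 71.6 CPM at pH 6.4. Both acid media lay below pH 7.4 without overlap and shared one range. It averaged 78.9 ± 11.1 CPM at pH 6.4 and 124 ± 18.6 CPM at pH 7.4 (SD, n = 4 each), a 1.57-fold fall (log2 -0.65, SE 0.12, edgeR adjusted p = 0.0013). CTSA, the carboxypeptidase that protects NEU1 in a complex, had 215 to 229 CPM at pH 6.4 and 251 to 273 CPM at pH 7.4, without overlap (log2 -0.24, SE 0.06, edgeR adjusted p = 0.0116).

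CTSZ (ENSG00000101160, chr20:58995185-59007247), the carboxypeptidase cathepsin Z, had 423, 395, 327 and 318 CPM at pH 7.4, 393, 384, 344 and 317 CPM at pH 6.9 and 286, 272, 287 and 242 CPM at pH 6.4. Its pH 6.4 libraries stood below all others, and the 2 milder media overlapped. It fell 1.35-fold at pH 6.4 against pH 7.4 (log2 -0.43, SE 0.10, edgeR adjusted p = 0.007). The other 6 were not called: the cysteine proteases CTSB (log2 0.14) and CTSL (-0.29), the galactosidase GLA (0.09), the hexosaminidase subunit HEXA (0.06), the glucuronidase GUSB (0.12) and PSAP (-0.12), which encodes activators of lipid-degrading enzymes. With the repeat number as a block, CTSB passed as higher (edgeR adjusted p = 0.0209) and CTSL as lower (0.00079).

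Of the transcription factors, TFE3 (ENSG00000068323, chrX:49028726-49043486) rose. It had 141, 141, 166 and 179 CPM at pH 7.4, 155, 177, 178 and 191 CPM at pH 6.9 and 199, 236, 213 and 273 CPM at pH 6.4. Its pH 6.4 libraries were above all others, while pH 6.9 and pH 7.4 overlapped. The rise against pH 7.4 was 1.47-fold (log2 0.55, SE 0.11, edgeR adjusted p = 0.00192). MITF had 22.6 to 33.1 CPM at pH 6.4 and 29.6 to 42.9 CPM at pH 7.4 and missed the threshold (log2 -0.44, SE 0.16, edgeR adjusted p = 0.0509). With the repeat number as a block it passed as lower (edgeR adjusted p = 0.00241). TFEB, with 7.95 to 9.75 CPM at pH 6.4 and 7.71 to 12.5 CPM at pH 7.4, was not called (log2 -0.08, edgeR adjusted p = 0.742). These proteins are also controlled by their entry into the nucleus, which messenger RNA does not measure.

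The autophagy genes had a median log2 fold change of 0.20, and each of the 9 estimates was above 0, though 6 did not pass the test. WIPI1 (ENSG00000070540, chr17:68420948-68457513) encodes a protein that binds the lipid PI3P on forming autophagosomes. It had 43.1, 39.6, 33.7 and 33.7 CPM at pH 7.4, 39.6, 40.4, 35.8 and 31.1 CPM at pH 6.9 and 68.5, 96.6, 43.1 and 84.0 CPM at pH 6.4. Only pH 6.4 stood apart, and its repeat 3 lay at the upper edge of the pH 7.4 range. The mean was 73.0 ± 23.0 CPM at pH 6.4 and 37.5 ± 4.61 CPM at pH 7.4 (SD, n = 4 each), a 1.94-fold rise (log2 0.96, SE 0.19, edgeR adjusted p = 0.00183).

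ULK1 (ENSG00000177169, chr12:131894651-131923167), the kinase that starts autophagy, had 24.8, 30.9, 29.7 and 29.4 CPM at pH 7.4, 36.0, 33.1, 38.1 and 39.0 CPM at pH 6.9 and 46.6, 53.9, 45.7 and 58.6 CPM at pH 6.4. The 3 media formed separate ranges in rising order of acidity. At pH 6.4 it was 1.78-fold higher than at pH 7.4 (log2 0.83, SE 0.10, edgeR adjusted p = 8.99e-05). BECN1 (ENSG00000126581, chr17:42810134-42833350), the scaffold of the lipid kinase complex that makes PI3P, had 87.6, 106, 91.1 and 93.7 CPM at pH 7.4, 98.5, 107, 90.6 and 93.0 CPM at pH 6.9 and 119, 127, 98.4 and 117 CPM at pH 6.4. Repeat 3 at pH 6.4 lay within the pH 7.4 range. Its rise of 0.29 on the log2 scale (SE 0.09, edgeR adjusted p = 0.0295) missed the threshold under 11 of 23 alternative settings (adjusted p 0.00246 to 0.207).

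SQSTM1, which encodes the cargo receptor p62, had 475, 477, 418 and 418 CPM at pH 6.4 against 459, 468, 460 and 401 CPM at pH 7.4, with the same mean of 447 CPM. MAP1LC3B and GABARAPL1, members of the ATG8 family that coats the autophagosome, had log2 fold changes of 0.05 and 0.20. The conjugation genes ATG5 and ATG7 both had 0.16, and UVRAG, a partner of BECN1, had 0.23. None of these was called. With the repeat number as a block, GABARAPL1 (edgeR adjusted p = 0.0392) and UVRAG (0.0338) passed as higher, which made 5 of 9 autophagy genes in a fit that called 21.4% of all tested genes higher.

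**Figure D3:**
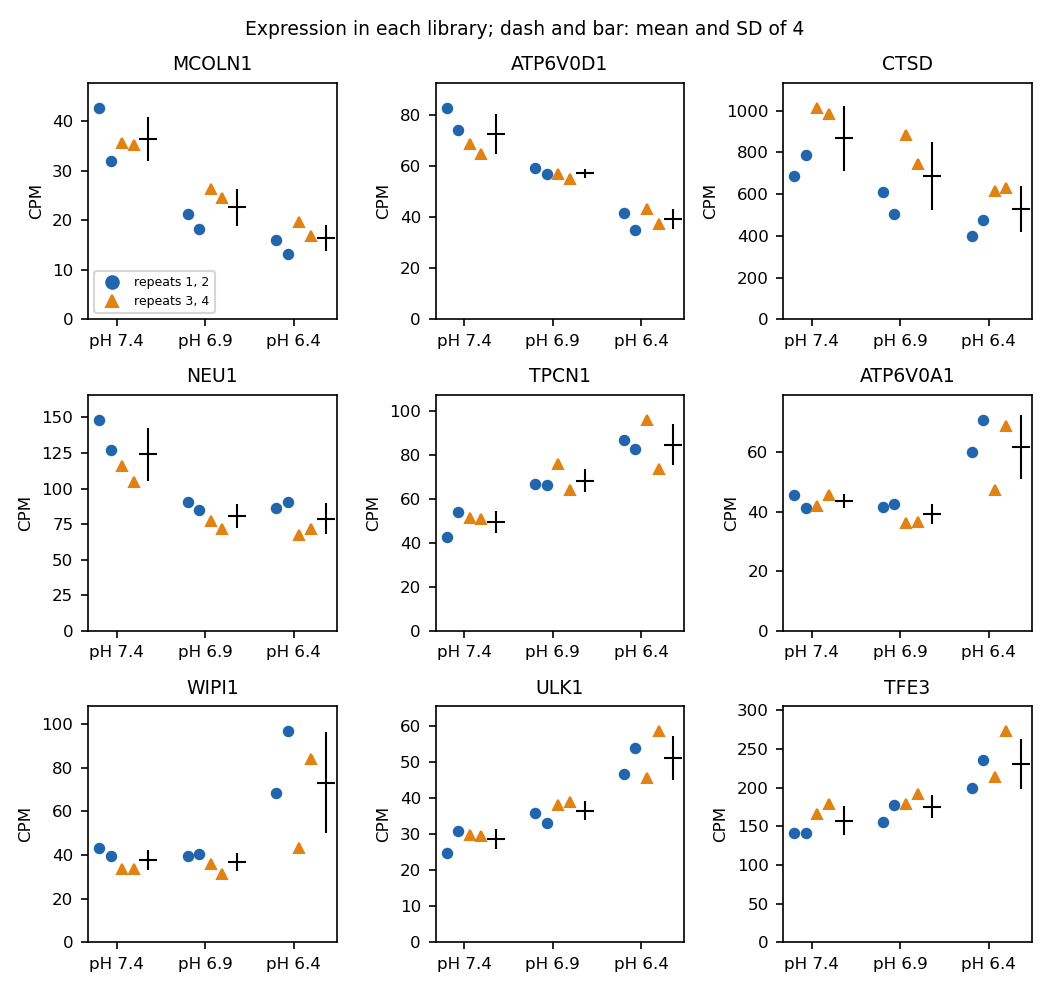
CPM of 9 genes in each library (points; circles repeats 1 and 2, triangles repeats 3 and 4) with the mean and SD of 4 (dash and bar), for pH 7.4, pH 6.9 and pH 6.4. MCOLN1, ATP6V0D1, CTSD and NEU1 are lower and TPCN1, ATP6V0A1, WIPI1, ULK1 and TFE3 higher in the 4 pH 6.4 libraries than in the 4 pH 7.4 libraries.

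The milder medium answers whether these genes already differ before strong acidity. At pH 6.9 against pH 7.4, MCOLN1 and NEU1 fell and none of the 43 was called higher. That is 4.65% of the 43 tested genes, beside 0.724% of all tested genes called either way, 0.41% lower and 0.313% higher. MCOLN1 averaged 22.6 ± 3.65 CPM at pH 6.9 and 36.4 ± 4.47 CPM at pH 7.4 (SD, n = 4 each; log2 -0.69, SE 0.14, edgeR adjusted p = 0.0403). NEU1 averaged 81.0 ± 8.46 CPM at pH 6.9 and 124 ± 18.6 CPM at pH 7.4 (SD, n = 4 each; log2 -0.62, SE 0.12, edgeR adjusted p = 0.0349). MCOLN1 lost its call under 13 and NEU1 under 10 of 23 alternative settings, among them leaving out repeat 1 at pH 7.4. With the repeat number as a block, 11 of the 43 genes were lower and 2 higher (25.6% and 4.65%). That fit called 2.44% of all tested genes lower and 2.96% higher, and pairing was not taken as shown in this comparison.

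By range alone, called or not, 10 genes were lower in every pH 6.9 library than in any pH 7.4 library and 2 were higher. These are 23.3% and 4.65% of the 43 genes, beside 4.91% and 5.18% of all tested genes, 10.1% in all. The 10 were ATP6V0A2, ATP6V0B, ATP6V0D1, ATP6V1G1, LAMP1, MCOLN1, CLCN7, CTSA, NEU1 and SQSTM1. The 2 higher ones were TPCN1 (log2 0.46, edgeR adjusted p = 0.0506) and ULK1 (log2 0.35, edgeR adjusted p = 0.159). TPCN1 passed as higher under 8 of 23 alternative settings, among them DESeq2's size factors (edgeR adjusted p = 0.0473) and only the 2 media compared (edgeR adjusted p = 0.0335). The median log2 fold change of the 43 genes was -0.13, beside 0.01 over all tested genes, and 32 of 43 estimates were below 0. This comparison and that of pH 6.4 share the pH 7.4 libraries.

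Between the acid media, 6 of 43 genes were higher and 4 lower at pH 6.4 than at pH 6.9 (14% and 9.3%, beside 8.83% and 8.2% of all tested genes, 17% in all). The libraries did not overlap for 6 genes that were higher and 3 that were lower (14% and 6.98%). Among all tested genes these shares were 9.64% and 10.8%, 20.4% in all. The share of falls was thus near the background by the test and under it by range. The rises were WIPI1 (log2 0.99, edgeR adjusted p = 0.00542), ATP6V0A1, ULK1 (0.49, 0.00832), TFE3 (0.39, 0.0263), TPCN1 (0.31, 0.0434) and SQSTM1 (0.30, 0.0226). WIPI1 and ATP6V0A1 had log2 -0.03 and -0.15 at pH 6.9 against pH 7.4 and were called only in the comparisons with pH 6.4. SQSTM1 had 328 to 376 CPM at pH 6.9, below all libraries of both other media. The falls were ATP6V0D1, MCOLN1 (log2 -0.46, edgeR adjusted p = 0.0422), CTSZ (-0.40, 0.019) and ATP6V1H (-0.30, 0.0439). NEU1 and CLCN7, with log2 -0.04 and -0.02 for this step, were as low at pH 6.9 as at pH 6.4 within the spread of the libraries. The same held for ATP6V0B, ATP6V1G1 and CTSA, with log2 0.03, 0.06 and -0.05. The calls of ATP6V1H and TPCN1 were lost under 14 of 23 alternative settings, that of MCOLN1 under 11, that of TFE3 under 8 and those of CTSZ and SQSTM1 under 5. The block gave counts of 10 higher and 7 lower of 43 (23.3% and 16.3%), beside 16.1% and 15% of all tested genes in the same fit.

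The promoter search was added after the genes' values had been seen, so it is a description without a test. All 9 genes with TCACGTG in a promoter window were lower at pH 6.4 than at pH 7.4, by log2 -1.14 to -0.19 with a median of -0.36. For 8 of the 9 the libraries did not overlap, beside 13.5% of all tested genes that were lower without overlap. Of the 24 tested genes that had a window without the match, 1 was lower (CTSZ), 7 were higher and 16 not called, with a median of 0.11. ATP6V0E1, ATP6V1C1 and ATP6V1H, also called lower, had no window and stand in neither group. The match was unevenly spread over the roles: none of the 8 autophagy and 3 factor genes with a window held it, and these gave 4 of the 7 rises. Within the enzymes 3 of 3 genes with the match and 1 of 4 without it were lower, and within the membrane proteins 3 of 3 with it were lower and 2 of 2 without it higher. At pH 6.9 against pH 7.4 the 9 genes had a median of -0.34, and the 24 had a median of -0.03. There 8 of the 9 were lower without overlap, while of the 24, 2 were lower and 2 higher without overlap. Among all tested genes 4.91% were lower and 5.18% higher without overlap. All 9 were lower at pH 6.4 within repeats 1 and 2 and within repeats 3 and 4, from -1.34 and -0.95 for MCOLN1 to -0.16 and -0.37 for ATP6V1G1. For the 8 genes without overlap at pH 6.4 this direction followed from the full comparison and is no independent support. The shorter CACGTG marked the same 9 genes, and the longer TCACGTGA marked 5. The 9 calls fell to 4 without a filter on low counts and to 4 with repeats 3 and 4 alone.

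Genes outside the 44 gave the following background. Among 127 other pathway genes with a window, from lists given below, 8 of 21 with TCACGTG were lower and 2 higher (38.1% and 9.52%), against 27 and 16 of 106 without it (25.5% and 15.1%). By role the shares of lower genes did not run one way. Among enzymes 2 of 6 with the match and 8 of 20 without it were lower (33.3% and 40.0%), and among membrane genes 2 of 6 and 9 of 23 (33.3% and 39.1%). Among nutrient-sensing genes 3 of 6 and 2 of 17 were lower, among autophagy genes 0 of 2 and 5 of 35, and among pump genes 1 of 1 and 3 of 11. Among all tested genes with a window, 21.8% of 804 with the match were lower and 15.0% higher, against 16.0% and 18.6% of 10721 without it. GAA, the acid alpha-glucosidase, holds the palindrome and rose (log2 0.54, edgeR adjusted p = 0.000376). No window was at hand for ATP6V0E1, ATP6V1A, ATP6V1B2, ATP6V1C1, ATP6V1H, LAMP2, CTSB, HEXA, PSAP and UVRAG.

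**Figure D4:**
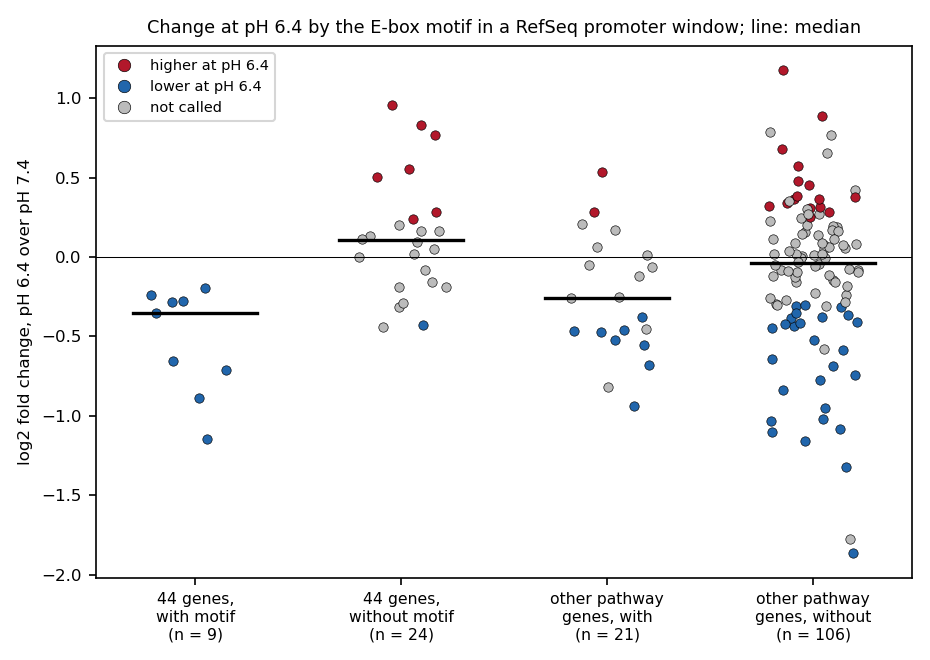
Log2 fold change at pH 6.4 over pH 7.4 for tested genes with a RefSeq promoter window, split by TCACGTG: 9 of the 44 genes with it and 24 without, and 21 and 106 other pathway genes (points; red called higher, blue called lower, grey not called; line, median). The 9 genes with the motif all lie below 0, with a median of -0.36, and the 24 without it have a median of 0.11.

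Other lysosomal and autophagy genes, 169 in all from lists written with an earlier account of these data known, were counted by the same roles. At pH 6.4 against pH 7.4, 23 of 167 tested were higher and 47 lower (13.8% and 28.1%, with the same background of 15.6% and 14.7%). Of 42 enzyme genes 15 were lower and 3 higher (35.7% and 7.14%). The acid phosphatase ACP2 averaged 20.3 ± 7.27 CPM at pH 6.4 and 43.7 ± 0.407 CPM at pH 7.4 (SD, n = 4 each; log2 -1.10, edgeR adjusted p = 0.000547), and the lipase LIPA averaged 90.2 ± 10.3 CPM at pH 6.4 and 192 ± 19.5 CPM at pH 7.4 (SD, n = 4 each; log2 -1.09, edgeR adjusted p = 6.51e-06). The collagen-degrading protease CTSK rose (log2 1.23, edgeR adjusted p = 0.00228), as did GAA.

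Of 35 further membrane genes 14 were lower and 3 higher (40% and 8.57%, beside 14.7% and 15.6% of all tested genes). OSTM1, the partner subunit of ClC-7, averaged 18.3 ± 4.35 CPM at pH 6.4 and 40.8 ± 3.16 CPM at pH 7.4 (SD, n = 4 each; log2 -1.16, edgeR adjusted p = 0.000217), so both parts of the exchanger fell. The nucleoside transporter SLC29A3 fell (log2 -1.32, edgeR adjusted p = 9.69e-05), and the cholesterol exporter NPC1 (log2 0.89, edgeR adjusted p = 0.000103) and the sialic acid exporter SLC17A5 (log2 0.68, edgeR adjusted p = 0.0416) rose. Of 18 further pump and pump-assembly genes 6 were lower and 4 higher (33.3% and 22.2%, beside the same background). The e2 subunit ATP6V0E2 (log2 -0.94, edgeR adjusted p = 0.00485) and the assembly factor CCDC115 (log2 -0.85, edgeR adjusted p = 0.00228) fell most. The rises were led by OXR1 (log2 0.65, edgeR adjusted p = 0.000381) and NCOA7 (log2 0.37, edgeR adjusted p = 0.0357).

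Of 44 further autophagy genes 10 were higher and 5 lower (22.7% and 11.4%, beside 15.6% and 14.7% of all tested genes). RB1CC1, which encodes FIP200 in the ULK1 complex, averaged 131 ± 17.5 CPM at pH 6.4 and 75.8 ± 7.97 CPM at pH 7.4 (SD, n = 4 each; log2 0.79, edgeR adjusted p = 9.84e-05). The cargo receptor CALCOCO2 rose (log2 0.45, edgeR adjusted p = 0.00162), and ATG10 (log2 -0.95, edgeR adjusted p = 0.015) and ATG4A (log2 -0.41, edgeR adjusted p = 0.0163) fell. Of 28 genes of the mTORC1 nutrient-sensing machinery on the lysosome 7 were lower and 3 higher (25% and 10.7%, beside 14.7% and 15.6%). The Rag GTPases RRAGC (log2 -0.55, edgeR adjusted p = 0.000322) and RRAGB (log2 -0.52, edgeR adjusted p = 0.0184) fell, and SESN2, a leucine sensor, and its relative SESN3 rose (log2 1.18, edgeR adjusted p = 0.000243, and log2 0.57, edgeR adjusted p = 0.0264).

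Levels between genes were compared per kilobase of annotated exon. At pH 7.4, PSAP (308 ± 58.9 CPM per kilobase, SD, n = 4) and CTSD (278 ± 50.2) led and did not differ beyond their spread, followed by CTSZ (179.5 ± 25.3). At pH 6.4, CTSD stood at 169.6 ± 35.1 and PSAP at 282.5 ± 43.9 CPM per kilobase. Among pump genes ATP6V0E1 (112 ± 17.6) and ATP6V1F (112 ± 9.08) led at pH 7.4, also within each other's spread. TFE3, at 36.7 ± 4.4, was above MITF (5.08 ± 0.798) and TFEB (1.63 ± 0.402) at pH 7.4.

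The repeats also split the genes. In every medium, 15 of the 43 genes were higher in both of repeats 1 and 2 than in both of repeats 3 and 4, and 4 were lower (34.9% and 9.3%, beside 8.19% and 9.76% of all tested genes). The 15 included GLA (mean log2 difference 0.55), HEXA (0.47), CTSL (0.42), PSAP (0.40) and CTSB (0.37), and the 4 were CTSD (-0.49), MITF (-0.40), ATP6V1F (-0.30) and CLCN7 (-0.20). The labels do not say what distinguishes the repeats. Within repeats 1 and 2, and within repeats 3 and 4, each of the 20 genes called at pH 6.4 against pH 7.4 kept its direction. For the 6 higher and 12 lower genes whose libraries did not overlap, this direction followed from the full comparison and is no independent support. The log2 values were -1.03 and -0.71 for ATP6V0D1, -0.64 and -0.66 for NEU1 and 0.81 and 0.74 for TPCN1. They were 0.85 and 0.83 for ULK1 and 1.00 and 0.92 for WIPI1.

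Several genes share exon sequence with a neighbour, and no source used here states the strand setting of the counting. Among called genes, WIPI1 shares 24.3% of its exon length with ARSG on the opposite strand, CTSA 17.7% with NEURL2, CLCN7 13.8% with an antisense gene and BECN1 12.4% with CNTD1, ATP6V0B 8.5% with an antisense gene, and MCOLN1 4.3% with AC008878.2 on the same strand. SQSTM1, called between the acid media, shares 20.7% with MRNIP on the opposite strand, and of the genes without a call at pH 6.4 against pH 7.4, ATP6V1F shares 23.7% with KCP and ATG7 18.1% with VGLL4, also opposite. Values of these genes are uncertain to that extent.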

How the data were processed

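The deposited table held raw counts of reads per gene for 12 libraries, prepared with a stranded mRNA kit according to the labels' protocols. The submitters' processing notes name STAR, featureCounts and the build GRCh38.p13 (hg38). Tool versions, strandedness of the counting and the treatment of multimapping reads were not given in the sources used here. Rows without a gene symbol took at most 0.424% of a library's counts. No pair of the 12 libraries was a copy of another, as each of the 66 pairs differed in the count of 22391 genes or more.

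Raw counts went into edgeR 4.0.16 under R 4.3.3, with limma 3.58.1 loaded. The filterByExpr function kept 17544 genes. Libraries were scaled with TMM, and the model had 1 term per medium over the 12 libraries, leaving 9 residual degrees of freedom. The robust quasi-likelihood test compared the media, and p-values were adjusted after Benjamini-Hochberg over all tested genes, with a call under 0.05. The common biological coefficient of variation was 0.198. The procedure was first tested on simulated data. DESeq2 1.42.0 was an alternative, beside other scalings, filters, left-out libraries, repeats 1 and 2 or 3 and 4 alone, and the repeat number as a block.

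Same-numbered libraries shared deviations in part, with correlations of 0.113 to 0.262 between pH 6.4 and pH 7.4 over 4 pairs. There 3 of 4 correlated best with their own number, and repeat 1, with the lowest value, did not. Between pH 6.4 and pH 6.9 the correlations were 0.264 to 0.47, and 4 of 4 correlated best with their own number. This hint of pairing comes from the data, as the labels do not say what a number marks.

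Full values are given for called genes among the 4 largest changes of their role and for calls at pH 6.9. Other pathway genes are named for the 2 largest rises and falls per list with at least 5 CPM. The promoter search was added after the values were seen. The 44 genes and all lists were chosen with earlier results of these data known. Coordinates of genes come from GENCODE release 29 (GRCh38).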

Additional observations from a re-analysis of the deposited data

Results flagged for a closer look

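Among 129 groups of 4 libraries (43 genes in 3 media), 5 held a library far from the other 3, about as many as the 1 in 20 that chance flags. ATP6V0B had 117 CPM in repeat 1 at pH 7.4, where the others had 96.9 to 98.8. ATP6V1B2 had 129 CPM in the same library, where the others had 86.5 to 92.9. That library held the fewest detected genes, and its part in these values was not tested. ATP6V1G1 had 86 CPM in repeat 3 at pH 6.4, where the others had 96.4 to 98.3. SQSTM1 had 401 CPM in repeat 4 at pH 7.4, where the others had 459 to 468, and 328 CPM in repeat 4 at pH 6.9, where the others had 372 to 376.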

How the results depend on the processing

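No called gene changed direction under any of 23 alternative settings. All settings drew on the libraries that gave the calls, so this is no independent support. For pH 6.4 against pH 7.4, the values of the 20 called genes kept the call 401 times and lost it 59 times. The 7 rises and 13 falls became 2 and 7 with repeats 3 and 4 only, and ranged from 6 to 8 and from 10 to 14 when each library was left out in turn. The 9 falls among genes with the promoter match, a result added after seeing the data, became 4 without a filter on low counts and 4 with repeats 3 and 4 only, with 6 to 8 when 1 library was left out. Scaling by library size only shifted the median log2 change of all genes to -0.08. For pH 6.9 against pH 7.4, rises numbered 1 with DESeq2 size factors, without a filter, with at least 1 CPM in 4 libraries, with only the 2 media compared and by DESeq2's Wald test, and 0 to 1 with 1 library left out. Falls numbered 1 with library size only, 7 by DESeq2's Wald test, 0 without the 2 libraries with the fewest genes, 0 with repeats 1 and 2 only, 0 with repeats 3 and 4 only, and 0 to 3 with 1 library left out, the 0 without repeat 1, 2 or 3 at pH 7.4 and without repeat 1, 2 or 4 at pH 6.9. For pH 6.4 against pH 6.9, rises numbered 3 with library size only, 0 with repeats 3 and 4 only and 3 to 8 with 1 library left out, the 3 without repeat 2 at pH 6.4. Falls numbered 2 with only the 2 media compared, 0 with repeats 3 and 4 only and 1 to 5 with 1 library left out, the 1 without repeat 1 at pH 6.9 and without repeat 2 or 4 at pH 6.4. The cause was not tested. With the repeat number as a block, pH 6.4 against pH 7.4 gave 10 rises and 18 falls, pH 6.4 against pH 6.9 gave 10 and 7, and pH 6.9 against pH 7.4 gave 2 and 11 (4.65% and 25.6%). Of all tested genes the block called 21.4% higher and 20.2% lower, 16.1% and 15%, and 2.96% and 2.44% in the same order of comparisons. In the last comparison same-numbered libraries correlated at 0.0798 to 0.352, and 3 of 4 correlated best with their own number, a hint from the data. Repeat 1, with the lowest value, did not, and the same held between pH 6.4 and pH 7.4. Pairing was therefore not taken as shown in either comparison.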
